A study of Arabidopsis thaliana with 15 samples.

Results

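WRKY genes encode a plant family of transcription factors, and 67 of the 27444 nuclear protein-coding genes in the RefSeq gene table have a symbol that is WRKY followed by a number. Members were chosen by that symbol alone, with no measured value. They were followed in native ChIP-seq of whole Arabidopsis thaliana seedlings (accession Col-0, 8 days old), where uncrosslinked chromatin is digested by micrococcal nuclease. The series held 15 libraries, 1 for each genotype and assay, the assays being H3K36me3, H3K4me3, H3K4me2, the core histone H3 and input. The 3 genotypes were the fpa single mutant (allele fpa-7), the bdrs triple mutant, whose alleles the labels do not give, and the wild type. For the bdrs input library, the source name gives 7 days and the age field 8 days. All seedlings had 4 days of cold at 4 °C and then grew at 21 °C with 16 h of light. The data are 3 peak lists, 1 per methylation mark, and the peak names show that libraries of the mark were pooled and set against pooled H3. The labels name each list for the 3 libraries of its mark, which come from the wild type and both mutants. They do not say outright which of these were pooled, so every value below is 1 value for the pool. No genotype was compared, there is no replicate error or test, and the depth behind a peak is unknown.

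WRKY proteins bind a short DNA element, the W box, through a domain that holds the letters WRKY and a zinc finger. They act in defence against pathogens, in salicylic acid and jasmonate signalling, in leaf senescence and in responses to nutrients, heat and drought, and many of their genes are switched on quickly by stress. Group I proteins have a pair of WRKY domains, group II proteins have 1 domain and are divided into IIa to IIe, and group III proteins have 1 domain with a different zinc finger. H3K4me3 marks the start of transcribed genes, H3K36me3 follows elongating RNA polymerase II along the body, and H3K4me2 in plants is found on both active and silent genes. A gene counts as carrying a mark if 200 bp or more of its body lay under listed peaks.

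Most WRKY genes carried H3K4me2, more than 50% carried H3K4me3, and few carried H3K36me3. The lists have unlike floors, with a lowest −log10 p of 8.58 for H3K4me2, 38.5 for H3K4me3 and 55.2 for H3K36me3. Each share is therefore set against that of all genes for the same mark. H3K4me2 was on 52 of the 67 genes (77.6%), against 75.0% of all nuclear protein-coding genes. H3K4me3 was on 38 (56.7%), against 62.7% of all genes. Those shares lie near the background of all genes under this rule, and for H3K4me3 the order depends on it. With 50% of the body as the limit, H3K4me3 was on 31.3% of WRKY genes, against 19.0% of all genes, and with the strongest 50% of the peaks it was on 17.9%, against 33.2%. With those strongest peaks, H3K4me2 was on 53.7% of WRKY genes, against 40.7%. H3K36me3 was on 16 (23.9%), against 49.9% of all genes, which is the widest gap of the 3 marks. Of the 38 WRKY genes with H3K4me3, 16 (42.1%) also carried H3K36me3, against 78.5% of all genes with H3K4me3. H3K4me3 came with H3K4me2 on 36 of the 38, against 94.9% of all genes with H3K4me3.

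**Figure D1:**
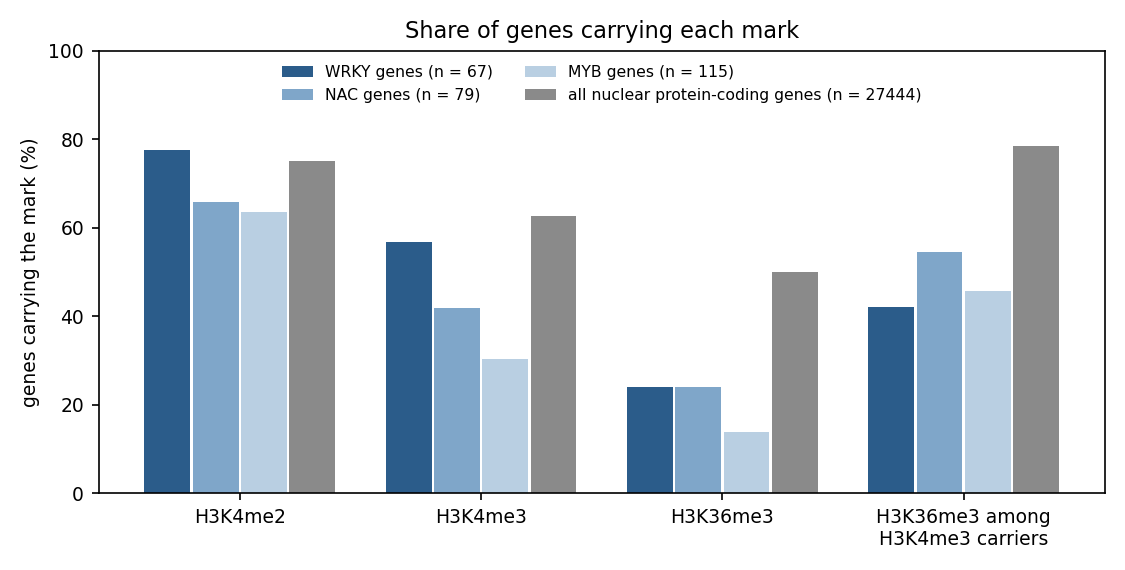
Bars give the percent of genes that carry each mark, and in the last group the percent of the genes with H3K4me3 that also carry H3K36me3, for 67 WRKY, 79 NAC, 115 MYB and all 27444 nuclear protein-coding genes. WRKY genes stand at 77.6%, 56.7% and 23.9% for H3K4me2, H3K4me3 and H3K36me3, against 75.0%, 62.7% and 49.9% of all genes.

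Each WRKY gene fell into 1 of 6 combinations of marks. The commonest was H3K4me2 with H3K4me3 and without H3K36me3, on 21 genes (31.3%), against 12.9% of all genes. These were WRKY2, WRKY6, WRKY14, WRKY17, WRKY23, WRKY26, WRKY27, WRKY28, WRKY29, WRKY40, WRKY41, WRKY45, WRKY46, WRKY48, WRKY53, WRKY54, WRKY58, WRKY60, WRKY65, WRKY69 and WRKY70. All 3 marks were on 15 genes (22.4%), against 46.6% of all genes, an order that turned at 50% of the body (10.4% against 8.54%). These were WRKY3, WRKY4, WRKY7, WRKY11, WRKY15, WRKY18, WRKY20, WRKY21, WRKY22, WRKY25, WRKY32, WRKY33, WRKY39, WRKY47 and WRKY57. H3K4me2 alone was on 16 genes (23.9%), against 15.3% of all genes. These were WRKY8, WRKY9, WRKY10, WRKY13, WRKY30, WRKY35, WRKY38, WRKY42, WRKY43, WRKY49, WRKY51, WRKY55, WRKY62, WRKY68, WRKY72 and WRKY74. No mark was listed on 13 genes (19.4%), against 21.4% of all genes. These were WRKY12, WRKY24, WRKY31, WRKY34, WRKY50, WRKY56, WRKY59, WRKY61, WRKY64, WRKY66, WRKY67, WRKY71 and WRKY75. WRKY36 carried H3K4me3 alone (0.521% of all genes) and WRKY19 carried H3K4me3 with H3K36me3 (2.65% of all genes). H3K36me3 without H3K4me3 was on 0 WRKY genes, while 0.441% of all genes had H3K36me3 alone and 0.259% had it with H3K4me2 and no H3K4me3.

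The cover was far from the 200 bp limit in nearly all members. The smallest covers that counted were 231 bp of H3K4me2 on WRKY51 and 240 bp on WRKY49, 335 bp of H3K4me3 on WRKY41 and 596 bp of H3K36me3 on WRKY47. Of the members without a mark, 0 had a listed peak of it that reached into the gene. In whole seedlings, a mark on few cells and a weak mark on many cannot be told apart.

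The counts varied between the WRKY groups. Group IId, whose proteins bind calmodulin, carried H3K36me3 on 5 of 7 genes and group I on 7 of 12 (58.3%), against 49.9% of all genes and 63.2% of all genes from 2000 to under 3000 bp, the range of both groups' median lengths. Group I was thus near the background. The other groups together carried H3K36me3 on 4 of 48 genes and H3K4me3 on 22 of 48. Groups I and IId had the highest H3K36me3 shares of all the groups, and carried H3K4me3 on 16 of 19 genes. Setting them apart thus lowers both counts of the rest in advance. No conclusion is drawn from those counts against the 49.9% and 62.7% of all genes. Groups IIa, IIc, IIe and III had median lengths from 1500 to under 2000 bp. In that range, H3K4me2, H3K4me3 and H3K36me3 were on 77.2%, 62.3% and 48.8% of all genes. Group III carried H3K36me3 on 0 of 12 genes, with H3K4me3 on 5 and H3K4me2 on 9 (75.0%). Its H3K4me2 share was thus near that of all genes in its length range. Group IIe carried H3K4me2 on 7 of 7 and H3K4me3 on 6 of 7 genes, but H3K36me3 on WRKY22 alone. Group IIa carried both H3K4 marks on 3 of 3 genes and H3K36me3 on WRKY18. Group IIc held 7 of the 13 genes without any mark, and of its 18 genes 11 carried H3K4me2, 5 H3K4me3 and 1, WRKY57, H3K36me3. Group IIb had the longest genes, with a median of 2866 bp, yet H3K4me3 was on 3 of 8 and H3K36me3 on 1 of 8. The shares of all genes from 2000 to under 3000 bp were 75.6% and 63.2%. Group IId had a median length of 2147 bp. Groups are small and their genes are related copies, so these counts were not tested.

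**Figure D2:**
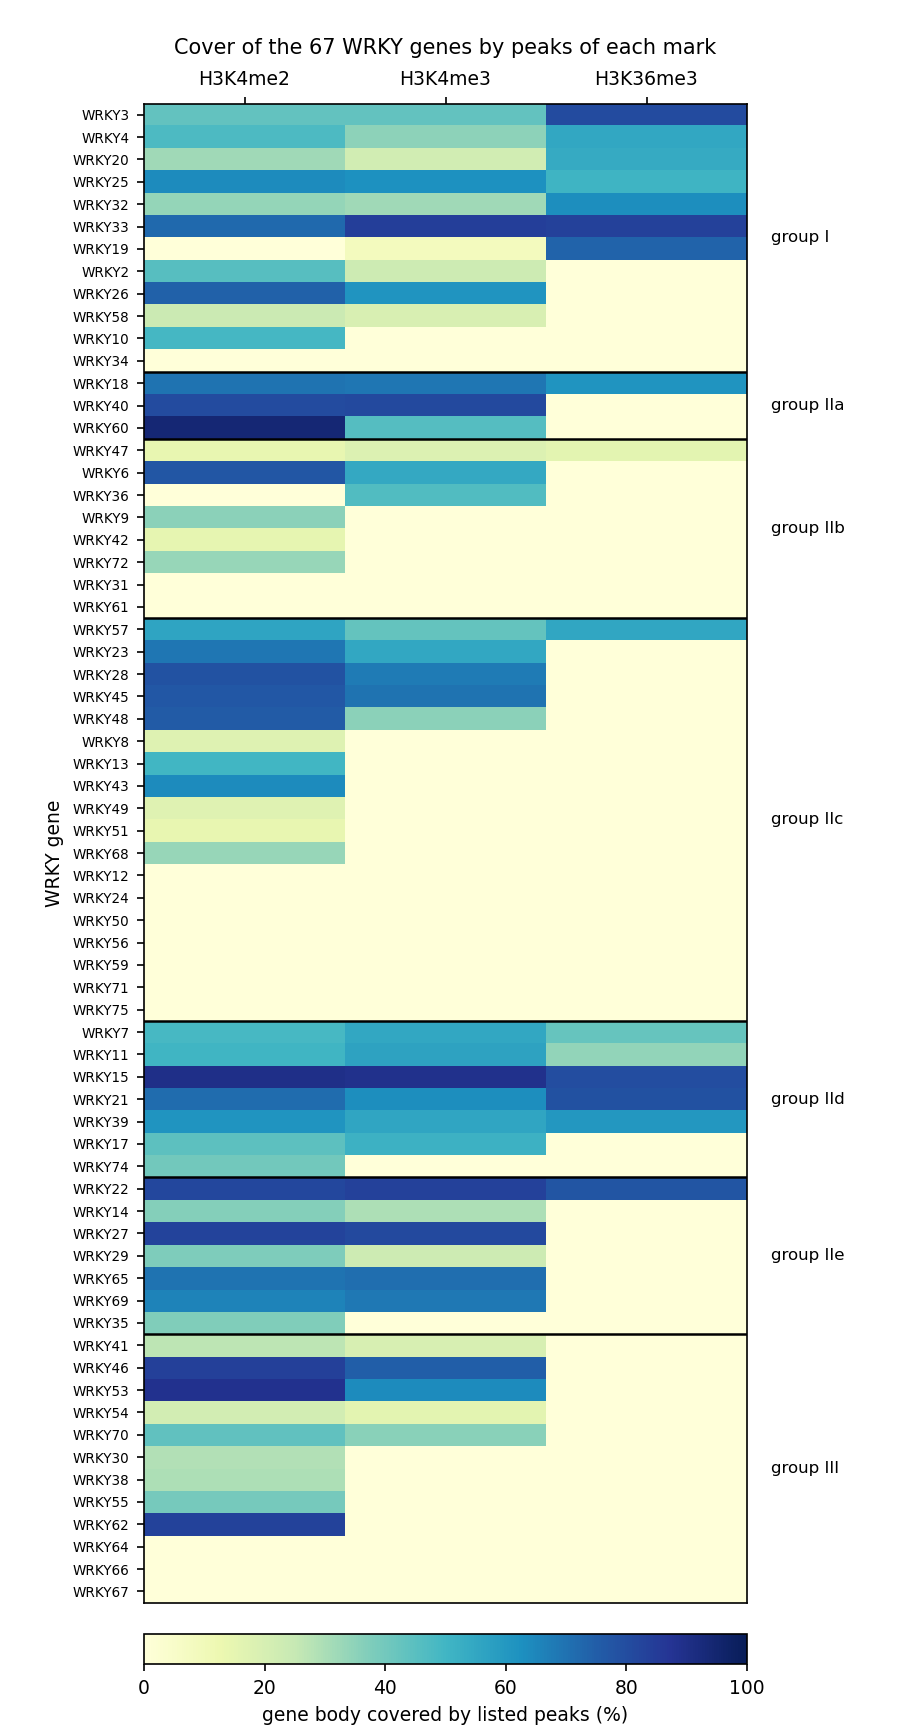
Each row is a WRKY gene and each column a mark, and the colour gives the percent of the gene body under listed peaks, with genes sorted by group and by the marks they carry. The H3K36me3 column is filled in groups I (7 of 12 genes) and IId (5 of 7 genes) and empty in group III (0 of 12).

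Among the group I factors, WRKY33 had the most complete H3K4me3 and H3K36me3 cover, while WRKY26 had slightly more H3K4me2 cover (73.9%, against 71.9% on WRKY33). WRKY33 is needed for resistance to necrotrophic fungi and for synthesis of the phytoalexin camalexin. Its H3K4me3 peak on chromosome 2 ran from 16108381 to 16110513 (TAIR10), or 84.2% of the gene, at a fold enrichment over H3 of 8.45. Fold enrichment here is the authors' value for the peak and ranks it only within its own list. Its H3K36me3 peak, from 16108435 to 16110542, covered 83.3% of the gene at a fold of 4.38. Its H3K4me2 peak had a fold of 2.33, at percentile 21.9 of the H3K4me2 list by −log10 p. WRKY33 thus paired a low H3K4me2 rank with an H3K4me3 peak at percentile 63.3 of its list.

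WRKY25 and WRKY26 act with WRKY33 in heat tolerance. WRKY25 carried all 3 marks, with folds of 5.53 for H3K4me2, 7.52 for H3K4me3 and 4.23 for H3K36me3. WRKY26 carried H3K4me2 at a fold of 2.04 and H3K4me3 at 4.84, with no H3K36me3 listed. WRKY3 and WRKY4, a closely related pair that acts in defence against necrotrophs, both carried all 3 marks. Their H3K4me3 folds were 11.1 and 10.2 and their H3K36me3 folds 6.48 and 6.41. H3K36me3 covered 80.1% of WRKY3 and 54.7% of WRKY4, and their H3K4me2 peaks stood at percentiles 57.5 and 35.6. WRKY20 had the highest-ranked H3K36me3 peak of the family, on chromosome 4 from 13438229 to 13440846, with a −log10 p of 298 and a fold of 7.22. WRKY2 and WRKY34 are related and both act in pollen. WRKY2, which also acts in the zygote, carried H3K4me2 (fold 5.66) and H3K4me3 (fold 8.54), and WRKY34 carried no mark. WRKY10, also known as MINI3 and active in the endosperm, carried H3K4me2 alone, at a fold of 3.56.

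WRKY19 stood apart from the other group I genes. It encodes a long protein that joins a WRKY domain to domains of an immune receptor and of a protein kinase, and its gene was the longest of the family at 8171 bp. H3K36me3 covered 6029 bp of it in 1 peak, from 7201603 to 7207631 on chromosome 4, at a fold of 4.57. Its H3K4me3 peak, at a fold of 11.3, lay over WRKY19 by 678 bp and had its summit outside, and it also covered the neighbouring AT4G12010. That H3K4me3 therefore cannot be assigned to WRKY19.

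In group IId, WRKY15, which acts in responses to salt and osmotic stress, had the highest-ranked H3K4me3 peak of the family. That peak, on chromosome 2 from 9924942 to 9926265, had a −log10 p of 563 and an 11.9-fold enrichment, at percentile 95.9 of the list. H3K4me3 covered 89.0% of WRKY15, H3K4me2 89.6% and H3K36me3 80.0%. WRKY7, WRKY11 and WRKY17 restrain basal resistance to bacteria. WRKY7 carried H3K4me3 at a fold of 10.8 and H3K36me3 at 5.47. WRKY11 carried H3K4me3 at 8.50 and H3K36me3 at 3.37, the H3K36me3 peak standing at percentile 2.98 of its list. WRKY17, the closest relative of WRKY11, carried H3K4me3 at 5.58 and H3K4me2 at 4.98, with no H3K36me3 listed. WRKY39 had the second-ranked H3K36me3 peak among members, at a fold of 6.64, and WRKY74 carried H3K4me2 alone, at 5.25.

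Group IIa holds WRKY18, WRKY40 and WRKY60, which bind one another and act in abscisic acid and defence responses. WRKY18 carried H3K4me2 at a fold of 5.06, H3K4me3 at 7.10 and H3K36me3 at 4.11. WRKY40 had near values for the H3K4 marks, 4.71 and 6.91, over 80.2% and 81.1% of the gene, with no H3K36me3 listed. WRKY60 had the widest H3K4me2 cover of the family, 93.8% of the gene at a fold of 4.94, while H3K4me3 covered 45.8% of it at a fold of 3.33. The H3K4me3 peak of WRKY60 stood at percentile 3.67 of its list, below that of WRKY40 at 25.7 and WRKY18 at 27.2.

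In group IIe, WRKY22 and WRKY29 act below a MAP kinase cascade that responds to bacterial flagellin. WRKY22 carried all 3 marks, on 81.6%, 83.4% and 77.7% of the gene for H3K4me2, H3K4me3 and H3K36me3. Its folds were 4.69, 8.32 and 4.24. WRKY29 carried H3K4me2 at a fold of 3.03 and H3K4me3 at 3.06 over 399 bp, with no H3K36me3 listed. The pair thus differed in cover as well as in H3K36me3. WRKY27, which affects symptoms of bacterial wilt, had an H3K4me2 peak at percentile 97.3 of its list (fold 7.07) and H3K4me3 at percentile 24.1 (fold 6.13). On WRKY69, H3K4me3 and H3K4me2 each formed a pair of peaks, and the peaks at 1 end also covered the overlapping gene AT3G58720.

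Group III includes regulators of salicylic acid signalling and senescence, and 5 of its 12 genes carried both H3K4 marks. WRKY46, which acts with WRKY54 and WRKY70 in growth and drought responses, had an H3K4me2 peak on chromosome 2 from 19043614 to 19044904. Its fold of 7.86 was the highest H3K4me2 fold among peaks with a summit in a WRKY gene, and it stood at percentile 98.0. The H3K4me3 peak of WRKY46 had a fold of 5.32, at percentile 16.8. WRKY53, which promotes leaf senescence, carried H3K4me2 over 88.5% of the gene at percentile 92.4 (fold 6.53) and H3K4me3 at percentile 12.5 (fold 4.39). WRKY70, which links salicylic acid and jasmonate signalling, carried H3K4me2 at percentile 93.6 (fold 6.96) and H3K4me3 at 15.3 (fold 5.25). All 3 genes combined a high rank for H3K4me2 with a low one for H3K4me3, an order also seen in the medians of all genes without H3K36me3. Over all genes with both H3K4 marks and no H3K36me3, the median H3K4me2 percentile was 84.2. The median H3K4me3 percentile was 13.1 over all genes with H3K4me3 and no H3K36me3. WRKY54, the closest relative of WRKY70, carried both over less of the gene, 448 bp of H3K4me2 and 337 bp of H3K4me3, at folds of 3.94 and 3.15. WRKY41 carried H3K4me2 at a fold of 4.24 (percentile 66.3) and H3K4me3 at 5.88 (percentile 18.9). Within WRKY41, both marks lay wholly in the stretch it shares with the overlapping gene 3xHMG-box1. Neither mark can therefore be assigned to WRKY41. The H3K4me2 folds of WRKY54 and WRKY41 were below the family's median of 4.27.

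WRKY38 and WRKY62 are salicylic acid-induced genes that restrain basal defence, and both carried H3K4me2 alone. WRKY62 had it over 83.0% of the gene at a fold of 5.0 and percentile 86.8, above WRKY41 and WRKY54, and WRKY38 over 29.4% at 2.35. The group III genes without any mark were WRKY64, WRKY66 and WRKY67. WRKY64 and WRKY67 are direct neighbours on chromosome 1. The only other such pair in the family was WRKY54 and WRKY55 on chromosome 2, of which WRKY55 carried H3K4me2 alone. Neighbouring WRKY genes can be similar copies, and the sources used here do not say how reads with several matches were treated.

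Groups IIb and IIc include regulators of nutrient responses and of development. WRKY6, which acts in senescence and phosphate supply, carried H3K4me2 over 2259 bp at a fold of 6.36 and H3K4me3 over 1590 bp at 5.53. WRKY42, its relative that also acts on phosphate supply, carried H3K4me2 alone over 475 bp at a fold of 1.92. WRKY45 and WRKY75, related genes induced by phosphate starvation, differed in both H3K4 marks. WRKY45 carried H3K4me2 at a fold of 4.19 and H3K4me3 at 3.66, and WRKY75 carried no mark. WRKY36, a regulator of hypocotyl growth in light, had an H3K4me3 peak from 26278092 to 26279164 on chromosome 1 at a fold of 3.07, at percentile 2.29. Between the listed H3K4me2 peaks on either side of WRKY36, 6 called peaks had been left out of the list.

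WRKY48, which restrains basal defence, had the highest-ranked H3K4me2 peak of the family. It ran from 20090804 to 20092847 on chromosome 5 with a −log10 p of 236 and a fold of 7.70, at percentile 99.2. Its H3K4me3 peak, with a fold of 9.44 at percentile 81.7, was the strongest H3K4me3 peak on a WRKY gene without H3K36me3. WRKY23, which acts in auxin responses, had H3K4me2 at percentile 96.6 (fold 6.45). WRKY57, which acts in drought tolerance, was the only IIc gene with H3K36me3, at a fold of 3.32 and percentile 4.74. Of the related pair WRKY12 and WRKY13, which act in stem development and flowering, WRKY12 carried no mark and WRKY13 carried H3K4me2 at 5.01. WRKY43 carried H3K4me2 over 456 bp of a peak whose summit lay outside the gene, at a fold of 8.17.

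Over all the WRKY genes that carried it, H3K4me3 was wide but weak. Of the 38 members with H3K4me3, 37 had a summit inside, and their strongest peaks had a median fold of 6.91 (range 2.85 to 11.9), against 8.96 over 16721 such genes in all. The median covered length was 1116 bp, against 838 bp over all genes with the mark. Both contrasts were also seen at like gene length. In genes from 1500 to under 3000 bp, H3K4me3 covered a median of 1172 bp on 29 WRKY genes at a fold of 5.88, against 858 bp on 8532 genes in all at a fold of 9.04. The lower H3K4me3 fold held for genes with H3K36me3, with a median of 8.61 on 15 WRKY genes, against 9.47. It did not hold for genes without H3K36me3, with a median of 5.05 on 22 WRKY genes, against 4.77. H3K4me2 had a higher median fold on WRKY genes, 4.27, against 3.49 over all genes with an H3K4me2 summit. That order did not hold for genes with H3K4me2 alone, with a median fold of 2.50 on 15 WRKY genes, against 2.93. It held for genes with all 3 marks (4.23 against 3.42). For genes with H3K4me2 and H3K4me3 the folds were 5.44 against 5.03, but the median H3K4me2 percentiles were nearly equal (84.6 against 84.2). H3K36me3 had a median fold of 4.47 on the 16 WRKY genes that carried it, against 5.71. Its median cover was 60.7% of the body, against 65.9%.

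The marks lay over the same stretch of the gene. On the 36 WRKY genes with both H3K4 marks, a median of 98.8% of the sequence under H3K4me3 was also under H3K4me2 (range 77.3% to 100%), against 93.6% over all genes with both. Of the sequence under H3K4me2, a median of 85.5% was under H3K4me3, against 72.2%. The lowest such shares were 46.5% on WRKY48, 46.9% on WRKY2 and 47.9% on WRKY60, where H3K4me2 ran on past H3K4me3. The gene table used gives no strand, so positions were counted from the gene end nearer the strongest H3K4me3 peak. From that end, H3K4me3 reached a median of 1460 bp on the 16 genes with H3K36me3 and 1154 bp on the 22 without it. H3K36me3 reached a median of 1714 bp, and its far edge lay past that of H3K4me3 on 9 of the 16 genes, by the most on WRKY19, WRKY20 and WRKY3. It fell short of the H3K4me3 edge on the other 7, WRKY7, WRKY11, WRKY15, WRKY18, WRKY22, WRKY25 and WRKY47. Some of these edges were close, such as 741 bp against 769 bp on WRKY47, while WRKY7 had 1241 bp against 1491 bp. On WRKY11, H3K36me3 ended at 1164 bp and the H3K4me3 peak it lay on at 1212 bp. A separate H3K4me3 peak on WRKY11 ran from 1470 to 1840 bp.

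**Figure D3:**
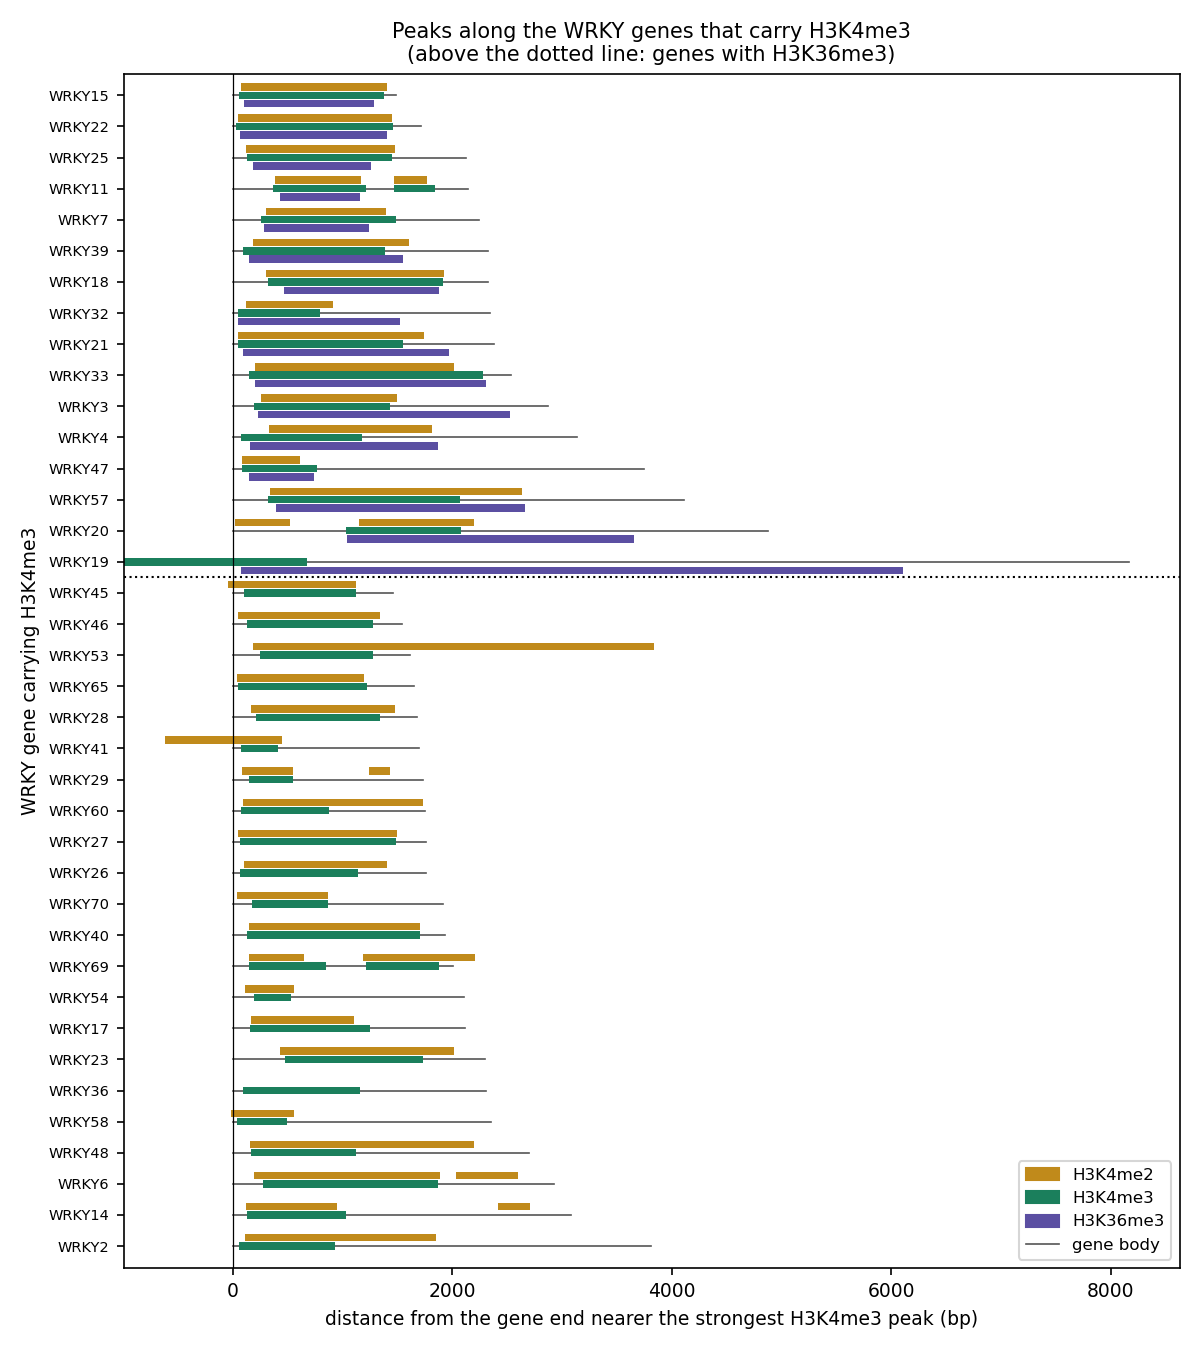
Bars show listed peaks of H3K4me2 (top), H3K4me3 (middle) and H3K36me3 (bottom) on each of the 38 WRKY genes with H3K4me3, by distance in bp from the gene end nearer the strongest H3K4me3 peak, with a thin line for the gene body. The 16 genes above the dotted line carry H3K36me3, and on 36 of the 38 genes the H3K4me2 and H3K4me3 bars lie over each other.

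H3K36me3 was present where H3K4me3 was strong. The H3K4me3 folds of WRKY genes with H3K36me3 ran from 7.10 to 11.9 with a median of 8.61 (15 genes with a summit inside). Those of WRKY genes without it ran from 2.85 to 9.44 with a median of 5.05 (22 genes). The ranges overlap through WRKY48, WRKY2 and WRKY69, with H3K4me3 folds of 9.44, 8.54 and 8.51 and no H3K36me3 listed. Over all genes the medians were 9.47 with H3K36me3 and 4.77 without it, so the same order held beyond the family. H3K4me2 had the opposite order, with median folds of 4.23 on WRKY genes with H3K36me3 and H3K4me3 and 5.44 on those with H3K4me3 and no H3K36me3. Over all genes those medians were 3.42 and 5.02.

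**Figure D4:**
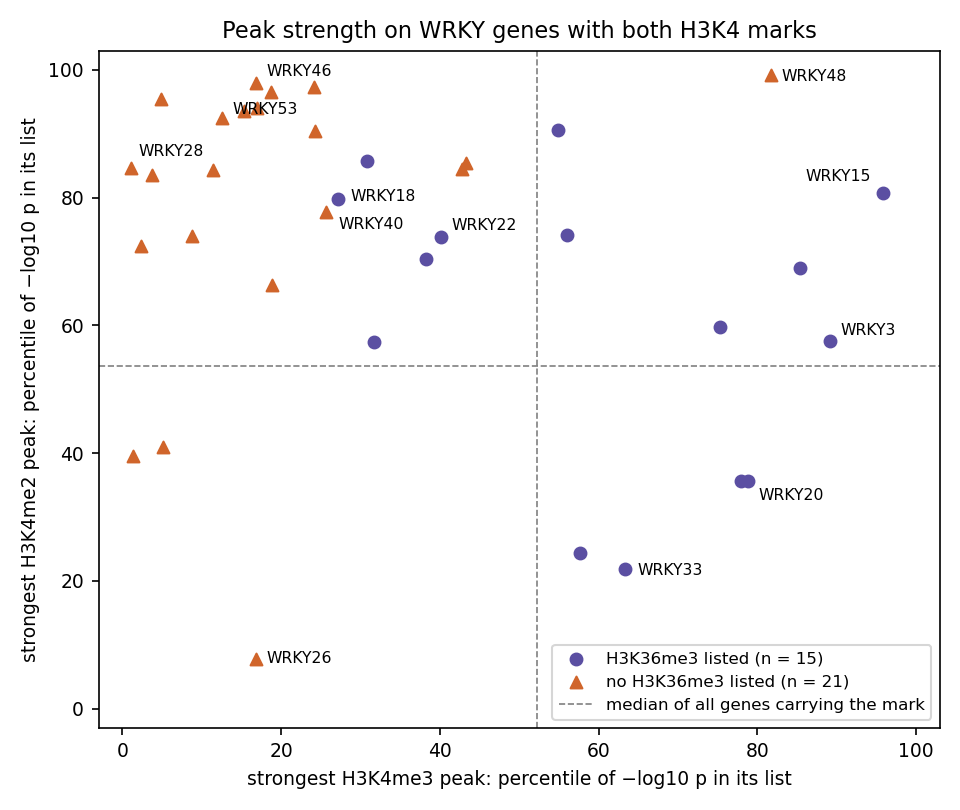
Each point is a WRKY gene with a summit of both H3K4 marks, placed by the percentile of its strongest peak's −log10 p within the H3K4me3 list (x) and the H3K4me2 list (y), with dashed lines at the medians of all genes carrying the mark. The 15 genes with H3K36me3 (circles) start at percentile 27.2 for H3K4me3, and the 21 without it (triangles) lie mostly at the upper left, apart from WRKY48 at percentiles 81.7 and 99.2 and from WRKY14, WRKY26 and WRKY29 at the lower left.

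WRKY genes were concentrated among the weaker H3K4me3 peaks. The strongest H3K4me3 peak was in the lowest 25% of the list on 18 of 37 WRKY genes (48.6%), against 22.3% of all genes. Of those 18 genes, 0 carried H3K36me3, against 22.2% of all genes at that strength. Between percentiles 25 and 50, it was on 5 of 8, against 87.4% of all genes. Between 50 and 75 it was on 4 of 4, against 98.0%, and above 75 on 6 of 7, against 99.5%. The WRKY share was below that of all genes in 3 of the 4 ranges, on few genes. The strength of H3K4me3 thus moved with H3K36me3 in the family and in all genes, and its part in the low H3K36me3 count was not tested.

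**Figure D5:**
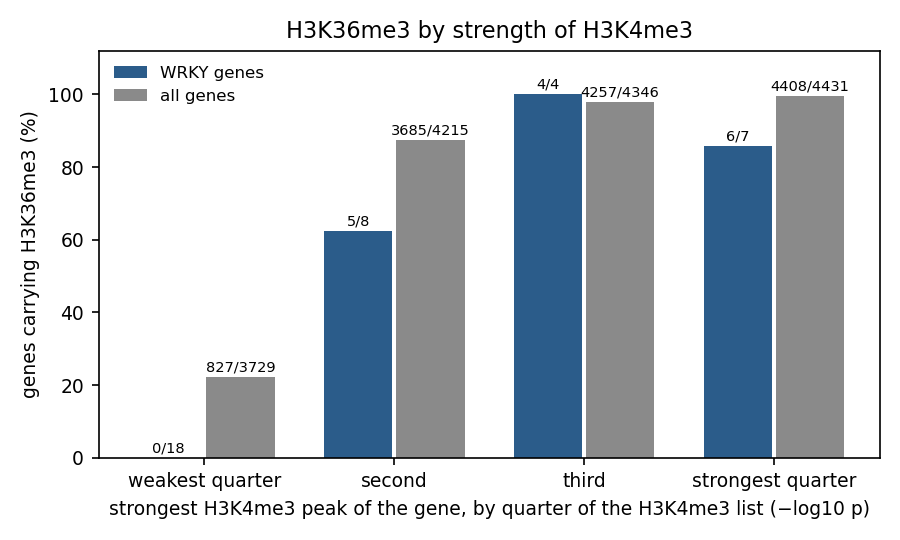
Bars give the percent of genes that carry H3K36me3, with the counts above them, for WRKY genes and for all genes, in 4 ranges of the strength of the gene's H3K4me3 peak within its list. WRKY genes show 0 of 18, 5 of 8, 4 of 4 and 6 of 7 from weakest to strongest, against 22.2%, 87.4%, 98.0% and 99.5% of all genes.

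Within bins of gene length, H3K36me3 was again on fewer WRKY genes than genes in all. The family's median length was 2006 bp, against 2078 bp for all genes. Among genes from 1500 to under 2000 bp, H3K36me3 was on 1 of 23 WRKY genes, WRKY22, against 48.8% of all genes. From 2000 to under 3000 bp it was on 9 of 24, against 63.2%, and at 3000 bp or more on 5 of 10, against 71.8%. Among genes with H3K4me3 in these 3 bins, it was on 1 of 12, 9 of 17 and 5 of 7 WRKY genes, against 76.9%, 82.8% and 85.4% of all genes. The gap in H3K36me3 was thus widest in the bin of 1500 to under 2000 bp. H3K4me2 in the 3 bins was on 18 of 23, 21 of 24 and 8 of 10 WRKY genes, against 77.2%, 85.9% and 90.9% of all genes. H3K4me3 was on 12 of 23, 17 of 24 and 7 of 10, against 62.3%, 75.6% and 83.4%. From 1000 to under 1500 bp, 4 of 9 WRKY genes carried H3K4me2, 2 of 9 H3K4me3 and 1 of 9 H3K36me3, against 63.8%, 47.0% and 29.9%. Of the 2 with H3K4me3 there, WRKY15 also carried H3K36me3 and WRKY45 did not, against 62.1% of all such genes. The short genes WRKY64, WRKY66, WRKY67, WRKY71 and WRKY75 carried no mark.

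The genes flanking WRKY genes carried H3K4me3 and H3K36me3 at about the level of the genome, and H3K4me2 somewhat more often. Of 130 flanking protein-coding genes that are not themselves WRKY genes, 106 (81.5%) carried H3K4me2, 79 (60.8%) H3K4me3 and 65 (50.0%) H3K36me3. The shares of all genes were 75.0%, 62.7% and 49.9%. Next to the 13 WRKY genes without any mark, 12 of 24 flanking genes (50.0%) carried H3K36me3, also near the share of all genes. The counts varied between chromosomes. On chromosome 5, 0 of 15 WRKY genes carried H3K36me3 and 4 carried H3K4me3, against 51.0% and 63.7% of all genes there. On chromosome 4, 8 of 16 carried H3K36me3 and 12 H3K4me3, against 49.5% and 62.4% of all genes. Chromosome 5 held 2 of the 12 group I genes and 1 of the 7 group IId genes, so group and chromosome are partly mixed. On chromosome 1, H3K4me2, H3K4me3 and H3K36me3 were on 8, 7 and 2 of 15 WRKY genes, against 75.5%, 63.1% and 49.9% of all genes. On chromosome 2 they were on 13, 10 and 5 of 15, against 71.5%, 59.7% and 47.1%. On chromosome 3 they were on 6, 5 and 1 of 6, against 75.5%, 63.4% and 51.2%. H3K4me2 was on 13 of 16 WRKY genes on chromosome 4 and 12 of 15 on chromosome 5, against 75.1% and 76.3%. The WRKY count for H3K36me3 was near the share of all genes on chromosome 4 and below it on the other chromosomes.

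The lists leave out some called peaks, so an unlisted mark may still be present at a weaker level. Peak numbers run in genomic order, and gaps in them show where a called peak was left out. Of the 22 WRKY genes with H3K4me3 and no H3K36me3, 20 had at least 1 left-out H3K36me3 peak between the listed peaks on either side, much as for all such genes (90.8%). The 2 without were WRKY54 and WRKY58. For H3K4me3, 17 of the 29 members without it had a left-out peak in that interval, against 55.2% of all genes without it. WRKY34 was the only member without any mark that had 0 left-out peaks in all 3 lists between its neighbours. The intervals also span other genes, so a left-out peak need not lie on the WRKY gene.

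Genes that act with WRKY factors in immune signalling are given by role, on few genes each and without a test. The list held 31 genes chosen by hand, with earlier results of these data known. Of these, 29 carried H3K4me2, 25 H3K4me3 and 19 H3K36me3, against 75.0%, 62.7% and 49.9% of all genes. All 8 genes of the MAP kinase cascade, among them MPK3, MPK4 and MPK6, which phosphorylate WRKY factors or their partners, carried all 3 marks. Their H3K4me3 folds were 10.2, 10.5 and 10.8. Of 8 genes of salicylic acid signalling, all carried both H3K4 marks and 6 carried H3K36me3. Those without H3K36me3 were EDS5, a salicylic acid transporter (H3K4me3 fold 5.34), and CBP60G, a regulator of ICS1 (3.17). SARD1 carried all 3 marks, but no H3K4me3 summit lay in it. Of the receptors and their partners, BAK1 and BIK1 carried all 3 marks and the receptors FLS2 and EFR lacked H3K36me3, with H3K4me3 folds of 5.70 and 5.95.

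Partner proteins of WRKY factors carried H3K36me3 on 3 of 5 genes, against 49.9% of all genes. SIB1 and SIB2, which bind WRKY33, carried both H3K4 marks without H3K36me3, with H3K4me2 folds of 8.83 and 3.67. MKS1, which joins MPK4 to WRKY33, and the histone deacetylase gene HDA19, whose product binds WRKY38 and WRKY62, carried all 3. Of 6 output genes, 0 carried H3K4me3 or H3K36me3, against 62.7% and 49.9% of all genes. PAD3 and CYP71A13, the camalexin enzymes regulated by WRKY33, carried H3K4me2 alone at folds of 2.41 and 1.93. FRK1, a flagellin-induced kinase gene, and PR5 also carried H3K4me2 alone, at 3.45 and 4.73, and PR1 and PR2 carried no mark.

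RRS1, also known as WRKY52, is not counted among the 67 because its table symbol is RRS1. It encodes an immune receptor that ends in a WRKY domain and works with the receptor RPS4. RRS1 carried all 3 marks, with folds of 3.28 for H3K4me2, 10.1 for H3K4me3 and 4.70 for H3K36me3. RPS4 carried all 3 marks too, but no H3K4me3 summit lay in it. Of the other genes with a WRKY number only among their synonyms, ZAP1 (WRKY1) and TTR1 (WRKY16) carried all 3 marks, though no H3K4me3 or H3K36me3 summit lay in TTR1, and ABO3 (WRKY63) and TTG2 (WRKY44) carried H3K4me2 alone.

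Other families of transcription factors also had few genes with H3K36me3. WRKY genes carried H3K4me2, H3K4me3 and H3K36me3 on 52, 38 and 16 of 67 (77.6%, 56.7% and 23.9%). NAC genes carried them on 52, 33 and 19 of 79 (65.8%, 41.8% and 24.1%). MYB genes carried them on 73, 35 and 16 of 115 (63.5%, 30.4% and 13.9%). The shares of all genes were 75.0%, 62.7% and 49.9%. The low H3K36me3 share was thus not particular to WRKY genes. Among genes with H3K4me3, H3K36me3 was on 42.1% of WRKY, 54.5% of NAC and 45.7% of MYB genes, against 78.5% of all genes. WRKY genes had higher shares than both families for H3K4me2 and H3K4me3, and these differences were not tested.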

How the data were processed

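Native ChIP-seq libraries of 3 histone marks and of total H3 from 3 genotypes were represented by 3 deposited peak lists. Per the submitters' processing notes, the tools were MACS2, R 3.3.2, Bowtie2 2.2.6, SAMtools 1.3, Trimmomatic 0.33 and Picard 2.2.4 and the build TAIR10, with no role or setting stated. Names of peaks in the deposited lists show pooled libraries of a mark set against pooled H3. The lists follow the narrowPeak layout: the deposited fold is the caller's ratio over H3, the deposited −log10 p is the caller's, and the deposited score is that value multiplied by 10 and truncated; the q column was not used. The lists keep 62.8%, 76.3% and 62.8% of the peak numbers for H3K4me2, H3K4me3 and H3K36me3, and the sources used here do not say by what criterion.

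Peaks were set on genes of the RefSeq table for TAIR10.1, so only peak coordinates are printed, counted from 1. To check the match, peaks were shifted in steps of 100 bp up to 1000 bp either way, and most of their sequence fell in genes when unshifted. In genes under 400 bp, 50% of the body had to be covered. The strongest peak of a gene is that with the highest −log10 p and a summit inside it. Python 3.11.15, pandas 2.3.3 and numpy 2.4.6 were used, and the cover count was tested on simulated data. WRKY groups and the immune signalling list come from general knowledge of the family. The members were set by symbol alone, but that rule and the lists were chosen with earlier results of these data known. Peak values are given for the 3 highest-ranked and most covered members per mark, for members of combinations with 5 or fewer genes and for members with well-known roles. Some relatives of these were named after their values were seen. A planned search of promoters for W boxes was not made, since no promoter sequence was used here. Alternatives were other cover rules, stronger peaks and synonyms.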

Additional observations from a re-analysis of the deposited data

How the results depend on the processing

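No paired analysis was possible because the lists pool libraries and carry no replicate. The counts for H3K4me2, H3K4me3, H3K36me3, all 3 marks and no mark were each taken under 6 alternatives, and 22 of 30 values stayed within 1.5 times the count in the text. Requiring 1 bp, 400 bp, a summit inside the gene, or adding genes known by a WRKY synonym moved none of them further. At a limit of 50% of the body, H3K4me2 was on 24 genes, H3K4me3 on 21, all 3 marks on 7 and no mark on 36. Those shares of WRKY genes were 35.8%, 31.3%, 10.4% and 53.7%, against 34.3%, 19.0%, 8.54% and 38.1% of all genes, so the order against all genes turned for H3K4me3, all 3 marks and no mark. H3K36me3 was then on 13 genes (19.4%), against 42.4% of all genes. With the strongest 50% of each list, H3K4me3 was on 12, H3K36me3 on 6, all 3 marks on 3 and no mark on 26, since fewer peaks were kept. H3K4me3, all 3 marks and no mark were then on 17.9%, 4.48% and 38.8% of WRKY genes, against 33.2%, 9.10% and 39.1% of all genes, and H3K4me2 on 53.7%, against 40.7%. H3K36me3 was then on 8.96% of WRKY genes, against 25.7% of all genes. The share of genes with H3K4me3 that carried H3K36me3 lay between 33.3% and 50.0% for WRKY genes under the 6 alternatives, and between 64.0% and 79.5% for all genes. Depth is unknown, so an unlisted mark is not shown to be absent.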

Other observations

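WRKY41 and WRKY53, related group III genes, both overlap a gene for a protein with HMG boxes. The WRKY41 neighbour is 3xHMG-box1 and the WRKY53 neighbour is 3xHMG-box2, and in each case 1 H3K4me2 peak lay over both genes. That peak was 1069 bp wide with a fold of 4.24 at WRKY41, and 3657 bp wide with a fold of 6.53 at WRKY53. The neighbours differed, as 3xHMG-box1 carried all 3 marks and 3xHMG-box2 carried H3K4me2 alone. H3K4me3 covered 335 bp of WRKY41 in a peak that lay wholly in the stretch shared with 3xHMG-box1. It covered 1028 bp of WRKY53 in a peak that covered no other gene by 200 bp or more.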
